A study of Mus musculus with 6 samples.

Results

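The table of FLK1+ mesodermal cells listed 47 genes of the integrin, cadherin, protocadherin and claudin families among its 14005 genes. They were taken by gene symbol, and Cdh5 and Cldn5, which mark endothelium, were left out by the rule. There were 12 integrin α genes, 6 integrin β genes, 13 cadherins, 8 protocadherins outside the clusters, 1 entry for the γ-protocadherin cluster and 7 claudins. RNA was taken at day 3.5 from embryoid bodies, whose FLK1+ cells were isolated on magnetic columns. The embryonic stem (ES) cells were mouse J1 cells as wild type (WT) and 1 Scl-/- line that lacks both working copies of Scl (Tal1). Both groups held 3 libraries from independent differentiations, which the labels number 1 to 3. The strain was labelled C57Bl/6 X Sv129, with a different number after Sv in 3 of the 6 libraries. Each genotype was a single ES line, so a difference between the lines and an effect of the genotype cannot be told apart here.

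Integrins are α and β heterodimers that bind extracellular matrix, plasma proteins or counter-receptors on other cells and connect them to actin. Classical cadherins join cells through contacts between molecules of the same kind, with catenins on the inner side, and the exchange of E-cadherin for N-cadherin is a textbook feature of the epithelial to mesenchymal transition (EMT) that forms mesoderm. Protocadherins are cadherin relatives that mostly adhere weakly and take part in cell sorting. Claudins form the strands of tight junctions in epithelia.

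Values were counts scaled to library size (CPM) as deposited, and divided by the smallest step between values of the same library they came out whole, within 0.01 of a step, which would put 38623641 to 47621120 reads on the listed genes. A floor of 3 reads corresponded to 0.0615 to 0.0784 CPM, which covers counting error only. Tal1 had 303, 182 and 306 CPM in the WT libraries and 9.35, 5.68 and 5.87 CPM in the Scl-/- libraries. Kdr, which encodes FLK1, had 832 to 868 CPM in WT and 724 to 810.4 CPM in Scl-/- cells. All 8 mesodermal markers were listed, and not all of them stayed level. With the replicate number in the fit (below), Etv2, Mesp1 and Pdgfra were called higher in Scl-/- cells and Aplnr lower. These were 3 and 1 of the 8, against 6.04% and 6.60% of all tested genes. Of 8 endoderm markers 2 were listed, with sums of 8.34 to 22.4 CPM in WT and 3.12 to 8.44 CPM in Scl-/- cells. Their mean levels went opposite ways. Sox17, which the paper groups with endothelial genes, had 6.53 to 22.0 CPM in WT and 0.967 to 5.56 CPM in Scl-/- cells. Cer1 had 0.151 to 1.80 CPM in WT and 0.369 to 2.88 CPM in Scl-/- cells. The sums therefore give no direction for endoderm. Of the members, 6 lie on chromosome 11 and 1 on chromosome 1, where the median log2 fold change over all tested genes was 0.31 and -0.29.

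**Figure D1:**
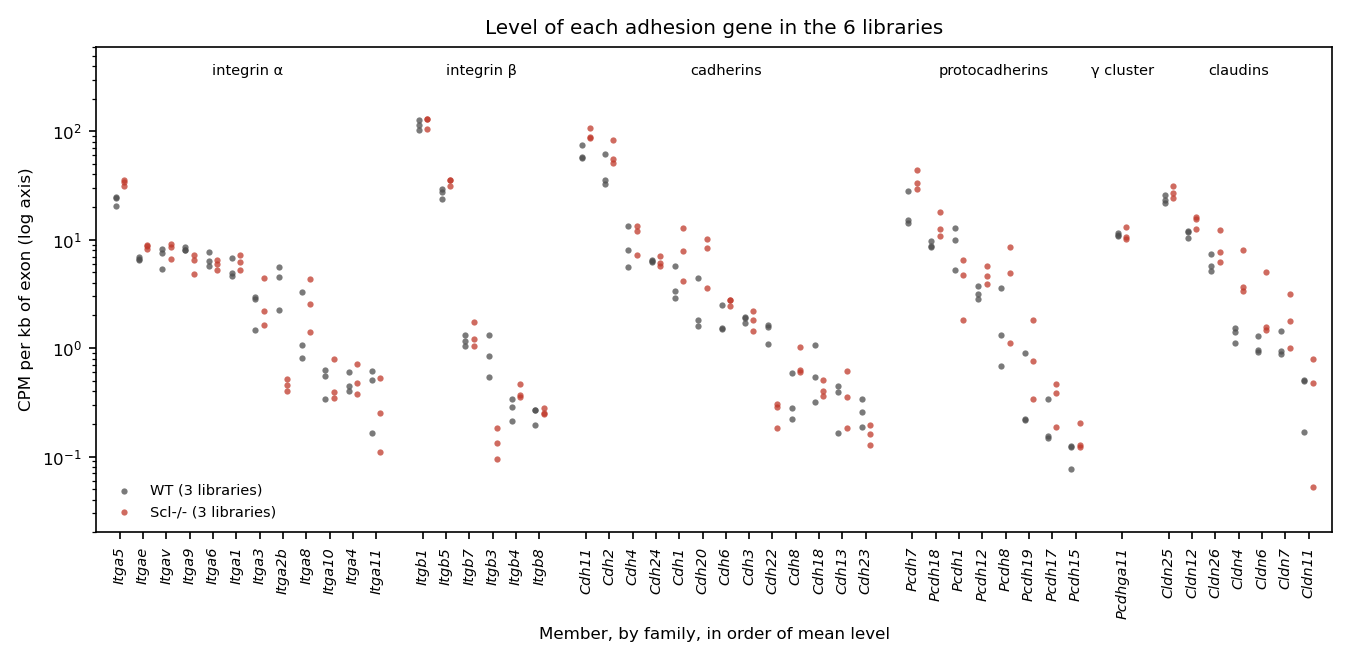
CPM per kb of exon (log axis) of each of the 47 members, by family and in order of mean level, in 3 WT (grey) and 3 Scl-/- (red) libraries, each point a library. Itgb1 and Cdh11 stand highest. The libraries of the 2 groups lie apart with Scl-/- lower for Itga2b, Itgb3, Cdh22 and Itga9, and with Scl-/- higher for 12 members.

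Levels were compared between genes only after division by the length of the annotated exons. On this scale Itgb1, the β1 subunit shared by most matrix receptors, was the highest member, at 115 CPM per kb in WT and 122 CPM per kb in Scl-/- cells. Cdh11, a type II cadherin of mesenchyme, had 63.1 and 94.6 CPM per kb, and Cdh2, which encodes N-cadherin, had 43.0 and 63.3 CPM per kb. Cdh1, which encodes E-cadherin, had 3.99 and 8.25 CPM per kb. The highest α subunit was Itga5, the fibronectin receptor chain that pairs with β1, at 23.3 and 33.6 CPM per kb. The highest protocadherin was Pcdh7, at 19.2 and 35.5 CPM per kb. The claudins were led by the entry named Cldn25, at 23.7 and 27.5 CPM per kb. RefSeq now calls that gene Cldnd1, and the entry named Cldn26 Tmem114, so that 5 of the 7 entries are claudins under current names.

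All 47 members reached 0.5 CPM in at least 3 libraries and were tested with limma on log2(CPM + 0.5) in a fit over 13991 genes. Calls needed a Benjamini-Hochberg adjusted p under 0.05 together with a log2 fold change (Scl-/- against WT) beyond 0.48 in either direction, and the pseudocount of 0.5 CPM understates the change of low genes. With condition as the only term, 3 members were lower in Scl-/- cells, Itga2b, Itgb3 and Cdh22, or 6.38% of the 47, against 1.57% of all tested genes called lower and 2.36% called in either direction. Without WT replicate 1 the 3 kept their direction and were not called (limma's adjusted p = 0.0623 for Itga2b, 0.124 for Itgb3 and 0.069 for Cdh22). Of all tested genes, 33 were called lower in that fit and 219 with all libraries. With the block and any one pair left out, the 3 members were called. No member was called higher by limma (0 of 47, against 0.793% of all tested genes), although at an unadjusted p under 0.05 there were 12 higher (8.73% of all tested genes) and 6 lower (8.95%). The Scl-/- library was the higher one in all 3 pairs for 26 members and the lower one for 7, against 29.8% and 26.4% of all tested genes. Same-numbered libraries deviated together from their group means (correlations across genes of 0.59, 0.76 and 0.75), so the replicate number was also fitted as a block, which changes the error of a fold change and not its size. With the block, 5 members were lower and 12 higher. These were 10.6% and 25.5% of the members, against 6.60% and 6.04% of all tested genes. The median log2 fold change was 0.31 over the members and 0.009 over all tested genes. Without the members on chromosomes 1 and 11 it was 0.27 over 40 members, of which 3 were called lower and 11 higher with the block.

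**Figure D2:**
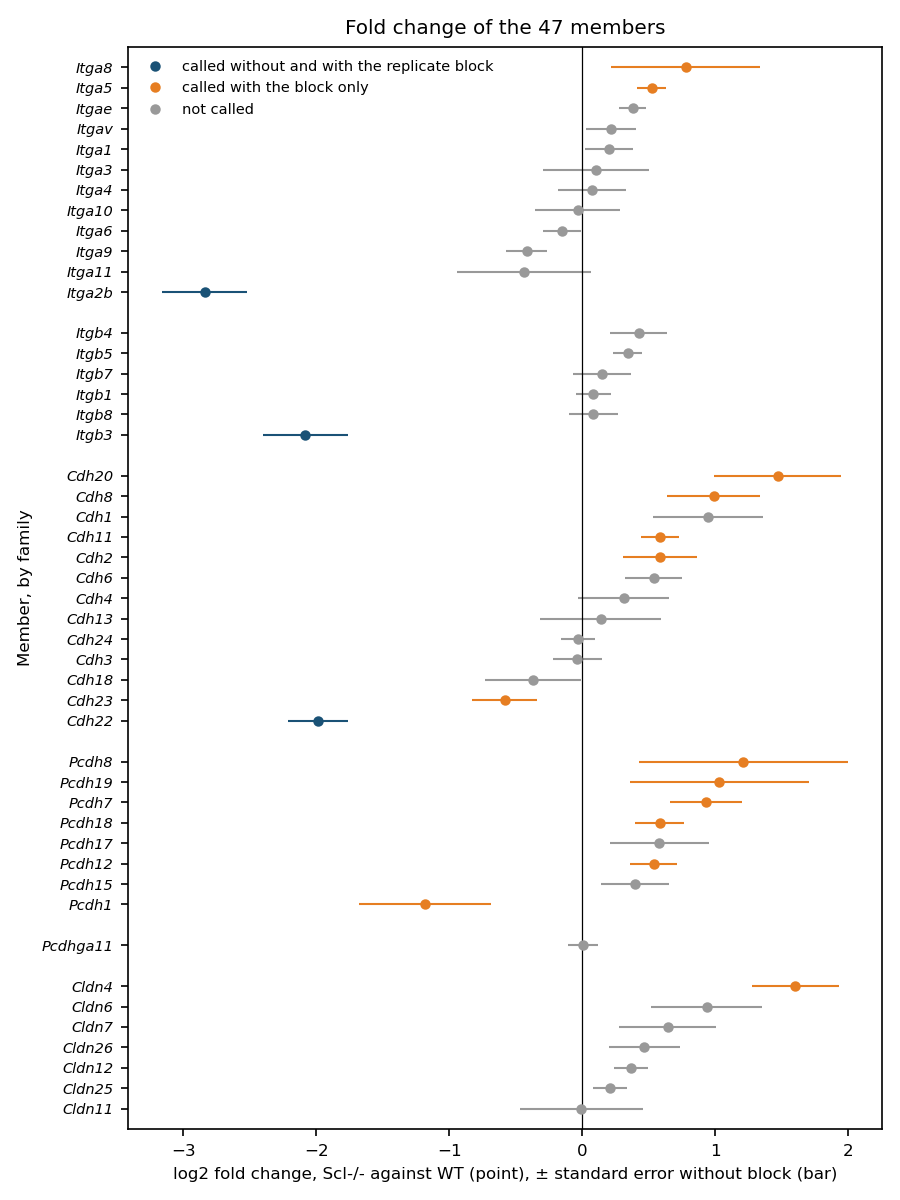
log2 fold change of the 47 members, Scl-/- against WT (points), with the standard error of the fit without the block (bars), by family. Blue members (3) were called in both fits, orange members (14) with the replicate block only, and grey members (30) in neither. The orange points lie mostly to the right of 0.

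Of the 18 integrins, both chains of a receptor of the blood lineage were lower in both fits, 2 α chains were higher with the block, and 14 were not called. With the block 11.1% of the 18 were lower and 11.1% higher, against 6.60% and 6.04% of all tested genes. Itga2b encodes αIIb (CD41), the early surface marker of haematopoietic commitment and of megakaryocytes. In the order of the replicate numbers, which is kept for every gene, its level was 24.8, 12.3 and 30.7 CPM in WT and 2.21, 2.51 and 2.86 CPM in Scl-/- cells. Every Scl-/- library lay below every WT library, which held for 4 members and for 10.7% of all tested genes. Itga2b lies on chromosome 11 from 102314611 to 102331436 of mm9, and its log2 fold change was -2.84 (standard error, SE, of 0.32, limma's adjusted p = 0.00857, or 1.6e-04 with the block). Its fall was against the direction of its chromosome, and with each chromosome's median deviation removed it was -3.14 (limma, adjusted p = 0.00609).

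Itgb3 encodes β3, the only β partner of αIIb, which also pairs with αv. It had 4.92, 3.14 and 7.67 CPM in WT and 0.779, 0.556 and 1.07 CPM in Scl-/- cells. The groups did not overlap, and WT replicate 2 was the lowest of the WT libraries for both subunits. The gene lies at 104469370 to 104531790 of mm9 chromosome 11, and its log2 fold change was -2.08 (SE 0.32, limma's adjusted p = 0.0223, or 2.1e-04 with the block), and it was also not called without WT replicate 3 or Scl-/- replicate 1 or 2 when the block was left out (limma's adjusted p = 0.0552, 0.0505 and 0.0848). Of the other β subunits none was called in either fit. Itgb1 had 466, 520.3 and 417 CPM in WT and 531, 533 and 425 CPM in Scl-/- cells, the groups overlapped, and its log2 fold change was 0.08 (SE 0.13, limma's adjusted p = 0.844). Itgb4, Itgb5, Itgb7 and Itgb8 had log2 fold changes from 0.08 to 0.43. The highest, that of Itgb4 on chromosome 11, was 0.12 with the chromosome medians removed.

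In these bulk samples, fewer cells of a type and less RNA per cell cannot be told apart. Markers of other cell types moved with αIIb and β3. Of 8 haematopoietic markers 4 were listed, Gata1, Gfi1b, Spi1 and Hbb-bh1, and all 4 were called lower in Scl-/- cells in both fits. Gata1, Gfi1b and Hbb-bh1 were under 0.5 CPM in every Scl-/- library and passed the filter through WT only. Their direction was therefore tied to the filter. Of all tested genes, 1.57% were called lower without the block and 6.60% with it. The summed level of the 4 markers was 9.72 to 28.9 CPM in WT and 0.629 to 1.23 CPM in Scl-/- cells. Hbb-bh1, an embryonic globin gene, was listed at 0 in all 3 Scl-/- libraries. Of the endothelial markers 7 of 8 were listed, and all 7 were lower with the block, against 6.60% of all tested genes. Their sums were 127 to 323 CPM in WT and 17.1 to 71.1 CPM in Scl-/- cells. Of 7 megakaryocytic markers 1 was listed, Gp1ba, at 5.20 to 8.83 CPM in WT and 4.57 to 9.91 CPM in Scl-/- cells. The part of these cells in the fall of Itga2b and Itgb3 was not tested.

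Among the α subunits, Itga5 and Itga8 were higher in Scl-/- cells with the block only. Itga5 had 90.4, 109.2 and 106.9 CPM in WT and 137, 156 and 149 CPM in Scl-/- cells, so that every Scl-/- library lay above every WT library. This held for 12 members, or 25.5%, against 11% of all tested genes. Its log2 fold change was 0.53 (SE 0.11, limma's adjusted p = 0.0586, or 9.3e-04 with the block), and without WT replicate 1 and the block it was 0.44, under the threshold. Itga8, which pairs with β1 and is known from mesenchyme, had 5.90, 24.1 and 7.84 CPM in WT and 10.3, 31.7 and 18.5 CPM in Scl-/- cells. Its groups overlapped while the Scl-/- library was higher in each pair, at a log2 fold change of 0.78 (SE 0.56, limma's adjusted p = 0.56, or 0.00861 with the block). Without the block, its log2 fold change was 0.39 without WT replicate 1 or without Scl-/- replicate 2, under the threshold, 1.36 without WT replicate 2 and 1.18 without Scl-/- replicate 1.

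The other 9 α subunits were not called. Itgav, the αv chain that pairs with β1, β3 and β5, had 57.3 to 87.9 CPM in WT and 71.5 to 98.4 CPM in Scl-/- cells, and a log2 fold change of 0.22. Itga9, Itgae and Itgb5 passed the adjusted p with the block but stayed under the fold-change threshold, at -0.42, 0.38 and 0.34. Itgae lies on chromosome 11, and with the chromosome medians removed its log2 fold change was 0.08 (limma, adjusted p = 0.566 with the block). Itga4, the α4 chain that with β1 binds VCAM1 on other cells, had a log2 fold change of 0.07, and its end overlaps Cerkl on the other strand, so reads of the 2 genes may be mixed.

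**Figure D3:**
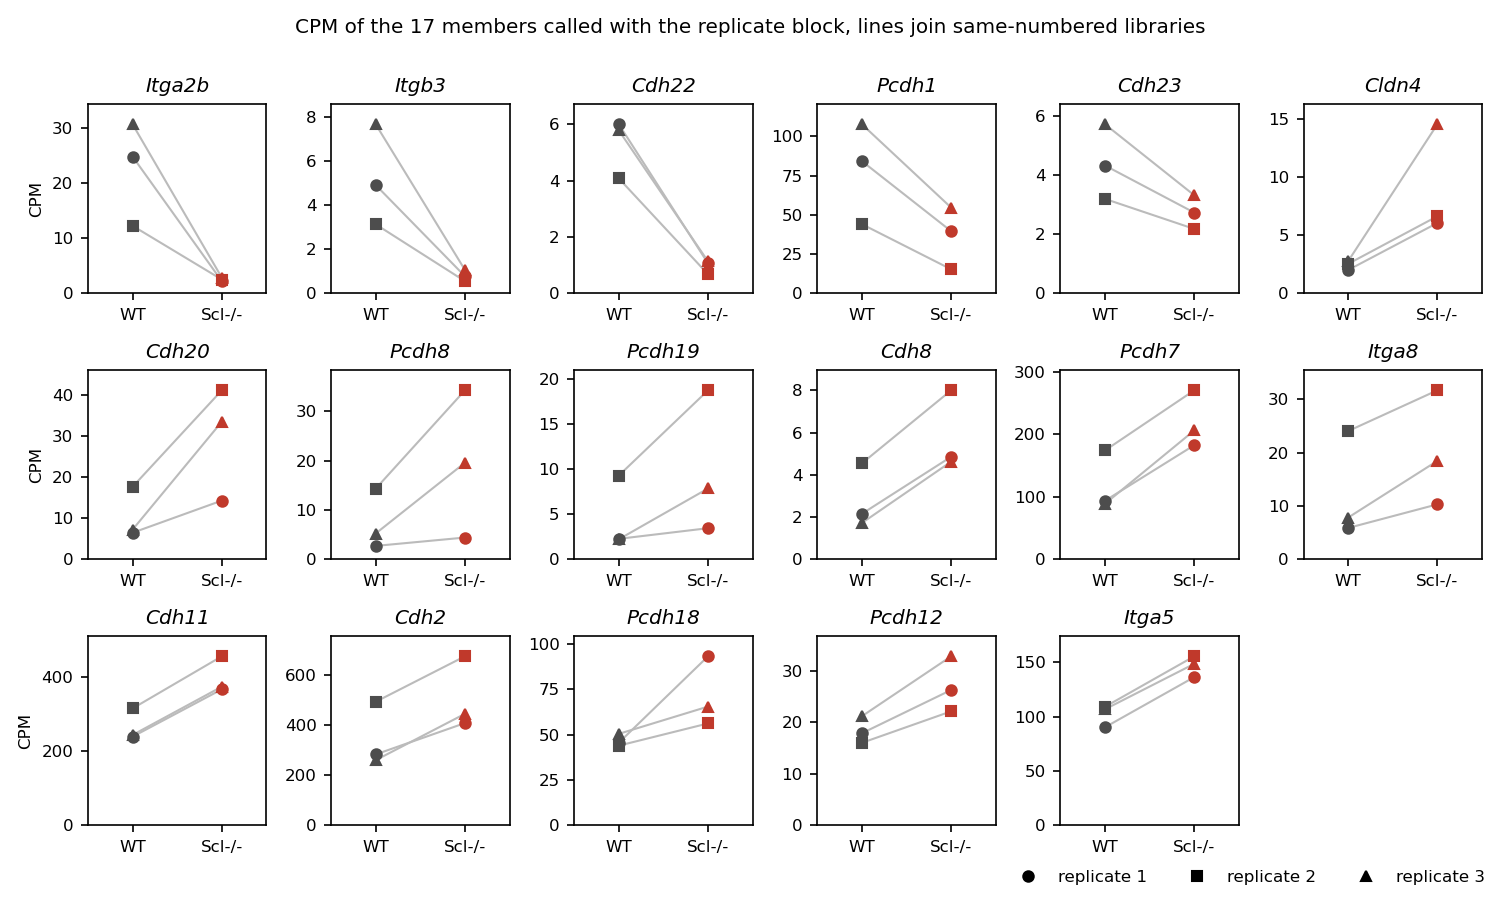
CPM in each library for the 17 members called with the replicate block, WT in grey and Scl-/- in red, with grey lines joining same-numbered libraries and a separate axis from 0 in each panel. The 5 lower members come first. In all 17 panels the 3 lines run the same way, and replicate 2 is highest in both groups in 9 of the 12 panels of higher members. The panels were chosen with the block, which favours genes whose pairs agree and removes shifts shared by a pair. Both patterns are therefore tied to the choice of panels.

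The cadherins included a type II cadherin that fell and mesenchymal cadherins that were higher. Cdh22, a type II cadherin best known from brain, had 6.00, 4.08 and 5.78 CPM in WT and 1.07, 0.677 and 1.13 CPM in Scl-/- cells. The groups did not overlap, and the log2 differences within the pairs were -2.05, -1.96 and -1.94. Cdh22 lies on chromosome 2 from 164937007 to 165060353 of mm9, and its log2 fold change was -1.98 (SE 0.23, limma's adjusted p = 0.0086, or 1.4e-04 with the block). Cdh23, an atypical cadherin of the hair cell's tip link, was lower with the block only, from 4.4 ± 1.26 CPM in WT to 2.74 ± 0.568 CPM in Scl-/- cells (SD, n = 3), with overlapping groups and a log2 fold change of -0.58 (limma's adjusted p = 0.273, or 0.0208 with the block). Without the block it was -0.40 without WT replicate 3 and -0.45 without Scl-/- replicate 2, under the threshold. With the block and without replicate 2 or 3 it was not called (limma's adjusted p = 0.0847 and 0.112).

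Promoters are shown for the members called lower in both fits and, for contrast, for the 2 with the highest log2 fold changes, since the SCL complex is known to bind E-box (CANNTG) and GATA sequences. Of the 47 members 32 were matched by symbol in the RefSeq promoters (GRCm38.p6, 300 bases across the start), and Itgb3 was not among them. Capitals mark CANNTG, which reads the same on both strands, and GATA on either strand, and in the 4 shown no match of the one overlapped the other. All sequences run 5′ to 3′ on the gene's strand.
Itga2b, chr11:102469834-102470133, minus strand: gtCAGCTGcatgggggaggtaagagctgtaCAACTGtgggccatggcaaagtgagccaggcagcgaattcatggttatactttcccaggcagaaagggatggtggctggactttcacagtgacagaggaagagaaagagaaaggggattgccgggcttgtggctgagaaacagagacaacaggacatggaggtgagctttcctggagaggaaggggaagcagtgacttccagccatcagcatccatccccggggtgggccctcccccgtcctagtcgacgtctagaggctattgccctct
Cdh22, chr2:165234688-165234987, minus strand: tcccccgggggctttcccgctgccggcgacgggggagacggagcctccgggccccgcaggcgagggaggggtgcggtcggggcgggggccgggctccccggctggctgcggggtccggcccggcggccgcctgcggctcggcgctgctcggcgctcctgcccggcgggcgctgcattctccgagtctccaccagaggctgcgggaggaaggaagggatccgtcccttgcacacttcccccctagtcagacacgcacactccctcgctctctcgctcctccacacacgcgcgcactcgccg
Cldn4, chr5:134946885-134947184, minus strand: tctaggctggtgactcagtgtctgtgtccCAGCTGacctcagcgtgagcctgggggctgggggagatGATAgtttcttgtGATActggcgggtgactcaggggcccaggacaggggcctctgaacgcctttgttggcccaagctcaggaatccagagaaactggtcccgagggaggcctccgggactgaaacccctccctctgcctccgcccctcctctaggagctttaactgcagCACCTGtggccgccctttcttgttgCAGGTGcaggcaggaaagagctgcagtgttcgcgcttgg
Cdh20, chr1:104768270-104768569, plus strand: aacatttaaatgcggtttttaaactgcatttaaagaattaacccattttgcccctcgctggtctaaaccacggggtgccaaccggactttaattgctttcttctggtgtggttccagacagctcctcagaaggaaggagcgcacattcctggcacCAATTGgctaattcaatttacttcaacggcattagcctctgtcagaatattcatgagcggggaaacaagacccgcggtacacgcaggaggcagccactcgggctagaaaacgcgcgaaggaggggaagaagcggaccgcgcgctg
Itga2b held 2 CANNTG and 0 GATA, Cdh22 held 0 of either, Cldn4 held 3 CANNTG and 2 GATA, and Cdh20 held 1 CANNTG and 0 GATA. The E-box was found in 23 of the members' 36 promoters (63.9%) and in 72.3% of all 32851 promoters, and GATA in 15 (41.7%) and in 57.9% of them. These counts describe the windows shown and not binding. From chromatin immunoprecipitation, the paper places Itgb3 and Cdh22 among the genes that SCL binds and activates. It assigned that binding to gene loci and not to these windows.

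Cdh11 and Cdh2 were the cadherins with the highest levels, and both were higher in Scl-/- cells with the block. Cdh11 (mm9 chromosome 8, 105156895 to 105309011) had 239, 315 and 244 CPM in WT and 367, 456 and 374 CPM in Scl-/- cells. The groups did not overlap, and the log2 fold change was 0.59 (SE 0.14, limma's adjusted p = 0.0895, or 4.4e-04 with the block). Without WT replicate 2 it was also called without the block, at 0.72 (limma, adjusted p = 0.0451). Cdh2 had 284, 495 and 261 CPM in WT and 409, 677 and 446 CPM in Scl-/- cells. WT replicate 2 lay above Scl-/- replicates 1 and 3, while the Scl-/- library was higher in each pair, at a log2 fold change of 0.58 (SE 0.28, limma's adjusted p = 0.341, or 0.00147 with the block). Without the block it was 0.36 without Scl-/- replicate 2, 0.41 without WT replicate 3 and 0.47 without WT replicate 1, each under the threshold.

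Of the low type II cadherins, Cdh20 and Cdh8 were higher with the block. Cdh20, which marks the anterior neural plate and neural crest in the embryo, had 6.47, 17.6 and 7.24 CPM in WT and 14.3, 41.1 and 33.5 CPM in Scl-/- cells. WT replicate 2 lay above Scl-/- replicate 1, and the log2 fold change of 1.47 (SE 0.48, limma's adjusted p = 0.171, or 0.00165 with the block) was against the direction of chromosome 1, becoming 1.76 with the chromosome medians removed. Cdh8 had 2.16, 4.55 and 1.72 CPM in WT and 4.86, 8.001 and 4.63 CPM in Scl-/- cells, without overlap and at a log2 fold change of 0.99 (SE 0.35, limma's adjusted p = 0.2, or 0.00311 with the block). Of 6 neuroectoderm markers 3 were listed, with sums of 69.7 to 122 CPM in WT and 129.6 to 173 CPM in Scl-/- cells. With the block 2 of the 3 were higher, against 6.04% of all tested genes. The part of these markers in the levels of Cdh20 and Cdh8 was not tested. The other cadherins (Cdh1, Cdh3, Cdh4, Cdh6, Cdh13, Cdh18 and Cdh24) had log2 fold changes from -0.37 to 0.95 and were called in neither fit.

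Most of the protocadherins were called with the block. Of the 8, 5 were higher and 1 lower in Scl-/- cells with the block. These were 62.5% and 12.5% of them, against 6.04% and 6.60% of all tested genes. The median log2 fold change of the 8 was 0.58. Without the block, limma called 0 of them. At an unadjusted p under 0.05, 3 were higher and 1 lower, against 8.73% and 8.95% of all tested genes. Pcdh7, Pcdh8, Pcdh18 and Pcdh19 belong with Pcdh1 and Pcdh17 to the δ-protocadherins. Pcdh7 had 93.9, 174 and 89.1 CPM in WT and 183, 271 and 207 CPM in Scl-/- cells, so that the groups did not overlap, at a log2 fold change of 0.93 (SE 0.27, limma's adjusted p = 0.134, or 7.5e-04 with the block). Without WT replicate 2 it was also called without the block, at 1.24 (limma, adjusted p = 0.0165). Pcdh18 had 45.6, 44.0 and 50.5 CPM in WT and 93.2, 56.2 and 65.5 CPM in Scl-/- cells, again without overlap. Its log2 fold change was 0.58 (SE 0.18, limma's adjusted p = 0.164, or 0.0147 with the block), and 0.36 with the block and without replicate 1, under the threshold.

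Pcdh8, the paraxial protocadherin of early mesoderm and somites, had 2.73, 14.3 and 5.24 CPM in WT and 4.43, 34.2 and 19.6 CPM in Scl-/- cells. Its replicate 2 was the highest library of each group, and the groups overlapped. The log2 differences within the pairs were 0.61, 1.23 and 1.80 (log2 fold change 1.21, SE 0.79, limma's adjusted p = 0.504, or 0.00512 with the block). Pcdh19, on chromosome X, also had its highest level of each group in replicate 2, with 2.28, 9.30 and 2.23 CPM in WT and 3.46, 18.8 and 7.87 CPM in Scl-/- cells (log2 fold change 1.03, SE 0.67, limma's adjusted p = 0.508, or 0.00913 with the block). With the block and without replicate 2, neither was called (limma's adjusted p = 0.0519 for Pcdh8 and 0.0707 for Pcdh19). With 1 library left out and no block, the log2 fold change of Pcdh8 ran from 0.61 without Scl-/- replicate 2 to 2.02 without Scl-/- replicate 1, with 0.71 without WT replicate 1. That of Pcdh19 ran from 0.45 without Scl-/- replicate 2 to 1.64 without WT replicate 2, with 1.59 without Scl-/- replicate 1.

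Pcdh1 and Pcdh12 went opposite ways. Pcdh1, a δ-protocadherin of epithelia and endothelium, had 84.2, 44.1 and 107.6 CPM in WT and 39.6, 15.3 and 54.6 CPM in Scl-/- cells. WT replicate 2 lay below Scl-/- replicate 3, while the Scl-/- library was lower in each pair, at a log2 fold change of -1.18 (SE 0.49, limma's adjusted p = 0.269, or 2.8e-04 with the block). Without Scl-/- replicate 2 and without the block, it was -0.66. Pcdh12 encodes an endothelial protocadherin, also called VE-cadherin-2. It had 17.9, 16.0 and 21.2 CPM in WT and 26.3, 22.2 and 32.9 CPM in Scl-/- cells, so that every Scl-/- library lay above every WT library, at a log2 fold change of 0.54 (SE 0.18, limma's adjusted p = 0.18, or 0.00432 with the block). Without the block it was 0.39 without Scl-/- replicate 3 and 0.45 without WT replicate 2, under the threshold. All 7 listed endothelial markers were lower with the block, so Pcdh12 differed from them in sign. The remaining protocadherins, Pcdh15 and Pcdh17, had log2 fold changes of 0.40 and 0.58 and were not called.

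Replicate 2 was the highest library of both groups for 9 of the 12 members called higher with the block, against 22.8% of all tested genes. The block removes shifts shared by a pair, and these 12 were called with it only. This count is therefore not independent of how the 12 were chosen, and other genes called with the block were not compared. Among the listed markers, replicate 2 was the highest of both groups for some and the lowest of both for others. It was the lowest for Dppa4, for the listed endothelial markers and for Nkx2-5. Nkx2-5 had 3.81, 2.46 and 5.12 CPM in WT and 2.99, 2.08 and 4.63 CPM in Scl-/- cells. It was the highest for Tbx6 and Tdgf1. Tbx6, a paraxial mesoderm factor, had 5.07, 12.5 and 5.49 CPM in WT and 7.91, 23.2 and 13.6 CPM in Scl-/- cells, and Tdgf1, a co-receptor of NODAL in epiblast and early mesoderm, had 75.03, 322 and 119.8 CPM and 196, 632 and 447 CPM. Over the 6 listed paraxial and cardiac markers the sum was 19.4 to 32.3 CPM in WT and 32.8 to 63.9 CPM in Scl-/- cells. Over the 7 listed pluripotent and epiblast markers it was 169 to 479.8 CPM in WT and 287 to 861 CPM in Scl-/- cells. With the block, 4 of the 6 were higher, and of the 7, 3 were higher and 2 lower. Of all tested genes, 6.04% were called higher and 6.60% lower with the block. The part of these markers in the higher members was not tested.

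The γ-protocadherin entry, named Pcdhga11 in the table, had 321, 333 and 315 CPM in WT and 376, 293 and 310.4 CPM in Scl-/- cells. The groups overlapped, and the log2 fold change was 0.01 (SE 0.11, limma's adjusted p = 0.991). The entry is not a single protocadherin. In the mm9 annotation its identifier, ENSMUSG00000023036, joins 10 transcripts with 28980 bases of exon over 167539 bases, and the table gives it the symbol of one γ gene and the description of another. It is therefore given as a level of the cluster, and the γ genes were not told apart.

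Among the claudins, Cldn4 was higher in Scl-/- cells with the block. It had 2.01, 2.54 and 2.77 CPM in WT and 6.05, 6.62 and 14.5 CPM in Scl-/- cells, without overlap, and had the highest log2 fold change of the 47 members, 1.61 (SE 0.32, limma's adjusted p = 0.0544, or 0.00129 with the block). Cldn6 and Cldn7, claudins of early epithelia, were not called with all libraries. Cldn6 had 1.46, 1.96 and 1.38 CPM in WT and 2.23, 2.37 and 7.60 CPM in Scl-/- cells, and Cldn7 had 1.71, 2.80 and 1.82 CPM and 1.97, 3.43 and 6.15 CPM. In both, Scl-/- replicate 3 stood above every other library.

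E-cadherin showed the same library. Cdh1 had 15.5, 26.1 and 13.2 CPM in WT and 18.9, 35.8 and 58.5 CPM in Scl-/- cells, and its log2 differences within the pairs were 0.28, 0.45 and 2.11. Without Scl-/- replicate 3, the log2 fold change fell from 0.95 to 0.56 for Cdh1, from 0.94 to 0.43 for Cldn6 and from 0.64 to 0.28 for Cldn7, while that of Cldn4 was 1.23 (limma, adjusted p = 0.0573). With the block and without replicate 3, Cldn4 was called, at 1.31 (limma, adjusted p = 0.00735). Cdh1 was not called in either fit (limma's adjusted p = 0.295, or 0.0582 with the block), but was with the block and without replicate 1 (1.28, limma's adjusted p = 0.00433), as were Cldn6 (1.16, 0.0268) and Cldn7 (0.89, 0.0285). Cldn7 lies on chromosome 11. With all libraries and the chromosome medians removed, its log2 fold change was 0.34 (limma, adjusted p = 0.394 with the block). Of the 6 epithelial markers, 3 were higher with the block, Epcam, Esrp1 and Krt19, against 6.04% of all tested genes. Epcam had 10.9, 16.8 and 11.6 CPM in WT and 14.7, 25.5 and 26.5 CPM in Scl-/- cells. The 6 markers summed to 477 to 606 CPM in WT and 333 to 617 CPM in Scl-/- cells, most of it from Krt8 and Krt18, which were not called, and their part in the levels of Cdh1 and the claudins was not tested.

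**Figure D4:**
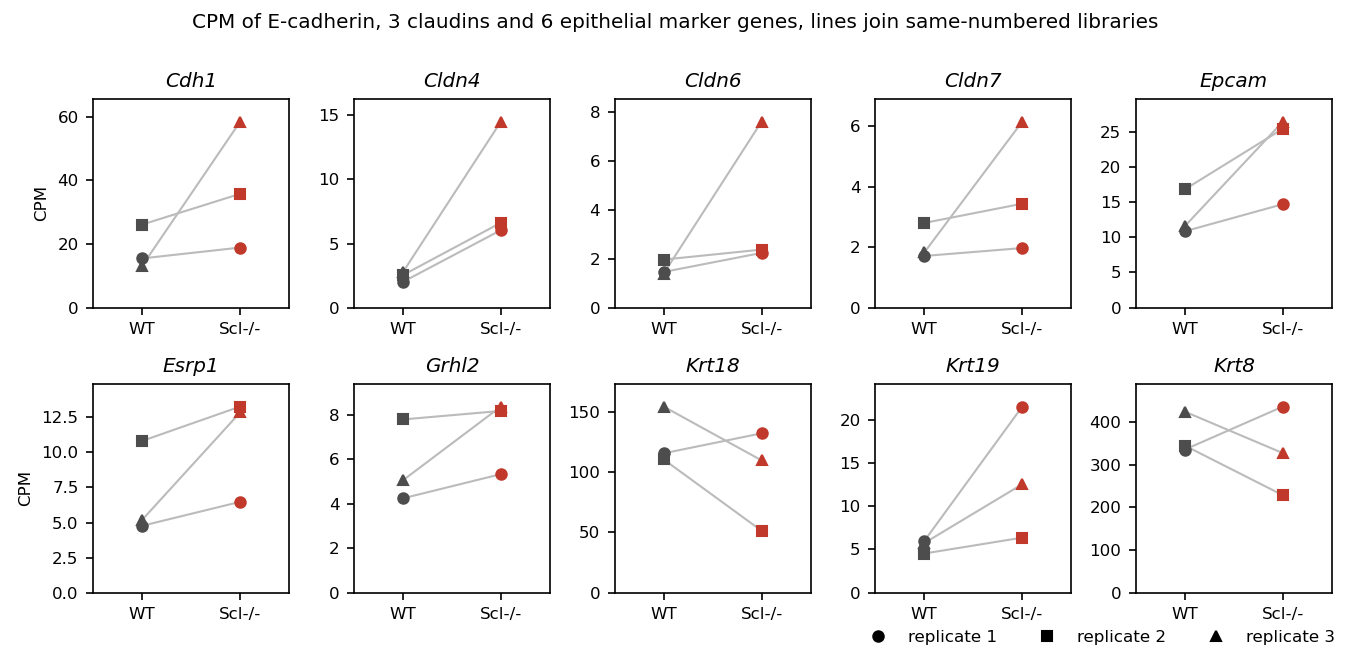
CPM of Cdh1, Cldn4, Cldn6 and Cldn7 and of 6 epithelial marker genes in WT (grey) and Scl-/- (red) libraries, with lines joining same-numbered libraries and a separate axis from 0 in each panel. Scl-/- replicate 3 is highest for Cdh1 and the 3 claudins, and it is not highest for Krt8, Krt18, Krt19 or Esrp1.

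Cldn12 and the Cldn26 entry passed the adjusted p with the block but stayed under the fold-change threshold, at log2 fold changes of 0.37 and 0.47. The Cldn25 entry had 55.8, 66.2 and 60.0 CPM in WT and 61.6, 81.0 and 69.2 CPM in Scl-/- cells, with overlapping groups and a log2 fold change of 0.21 (limma's adjusted p = 0.479, or 0.0541 with the block). Cldn11 was near the lower limit of the table, at 0.0967 to 1.48 CPM, with a log2 fold change of -0.0062.

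The partners of these receptors were counted over lists. Of 17 tested genes of cadherin-catenin junctions, limma called 0 without the block (at an unadjusted p under 0.05, 1 was lower and 2 higher, against 8.95% and 8.73% of all tested genes). With the block 1 was called, higher in Scl-/- cells, against 6.04% of all tested genes. This was Pvrl1 (nectin-1), at a log2 fold change of 0.49. Ctnnb1 and Ctnna1, which link cadherins to actin, and Ctnnd1, the p120-catenin that stabilises cadherins at the membrane, were not called. Of 23 integrin adaptors, limma called 0 without the block (at an unadjusted p under 0.05, 8 were lower and 1 higher), and 3 were lower with it. The 8 were 34.8% of the list, against 8.95% of all tested genes, and the 3 were 13.0%, against 6.60%, while the list's median log2 fold change was -0.04. Fermt3, the kindlin of blood cells that activates β3 integrins, fell from 7.70 ± 1.65 to 3.99 ± 1.01 CPM (SD, n = 3), at a log2 fold change of -0.87 (limma's adjusted p = 0.12, or 0.00276 with the block). The others were Parvg, the haematopoietic parvin, at -0.96 and Rasgrp2, the exchange factor that turns on RAP1 in platelets, at -0.59.

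Of 12 tight junction partners, limma called 0 without the block (at an unadjusted p under 0.05, 4 were lower), and 3 were lower with it, Tjp1 (ZO-1), Cgnl1 and the endothelial Esam. The 4 were 33.3% of the list and the 3 were 25.0%, against the same 8.95% and 6.60% of all tested genes, and the list's median log2 fold change was -0.12. Tjp1 had 382, 311 and 368 CPM in WT and 239.8, 219 and 255 CPM in Scl-/- cells, without overlap, at a log2 fold change of -0.57 (SE 0.11, limma's adjusted p = 0.0506, or 7.2e-04 with the block). Of 6 EMT regulators, Zeb2 was lower in both fits, from 130.4 ± 14.2 to 83.2 ± 8.77 CPM (SD, n = 3), at a log2 fold change of -0.64 (limma's adjusted p = 0.0466, or 3.4e-04 with the block). With the block Zeb1 was lower (-0.74) and Snai1 higher (1.28). In that fit 2 of the 6 were thus lower and 1 higher, against 6.60% and 6.04% of all tested genes. Of 6 listed integrin ligands, limma called 0 without the block (1 was lower at an unadjusted p under 0.05) and 1 with it, Icam2, which was lower at -1.08. Of all tested genes, 8.95% were lower at that unadjusted p and 6.60% were called lower with the block. Fn1, which encodes fibronectin, the ligand of α5β1, had 6252 to 7025 CPM in WT and 3617 to 6612 CPM in Scl-/- cells, lies on chromosome 1 and was not called.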

How the data were processed

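Reads were aligned by the authors with TopHat 2.0.8b (mm9), who also removed duplicate read pairs, filtered on mapping quality using SAMtools 0.1.19 and normalized with edgeR's TMM method. The deposited values are CPM, and the columns sum to between 976038 and 1017907. The counting tool, its use of strand and the annotation are not given in the sources used here. Groups were taken from the genotype labels and pairs from the replicate labels, since the study's design gives 3 independent differentiations and every same-numbered pair deviated together (correlations of 0.59 to 0.76). Values were whole multiples of the smallest step in each library, but a separate test of the low values alone did not find these steps, so the read totals are estimates and no count test was run.

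Of 14005 genes, 13991 reached 0.5 CPM in 3 or more libraries and were tested. limma 3.58.1 in R 4.3.3 (lmFit, eBayes with an intensity trend) was applied to log2(CPM + 0.5), with Benjamini-Hochberg adjustment over these genes, and tested on simulated data. p-values measure the spread between these libraries only. Positions and exon lengths come from GENCODE vM1 (mm9), promoters from RefSeq (GRCm38.p6). Python 3.11.15, pandas 2.3.3 and Matplotlib 3.10.9 were used for the rest.

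The members, partner lists and markers were chosen with earlier results of these data known. Printed one by one are members called in either fit, the highest member of each family per kb and, in a family without a call, the member with the largest change; other members and the genes of the partner and marker lists that were not called were picked after their values were seen. Alternatives covered the pseudocount, the filter, the block, scaling, the trend, fold-change thresholds, chromosome medians and each library left out.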

Additional observations from a re-analysis of the deposited data

How the results depend on the processing

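The 3 members called lower and the 0 called higher without the block were the same numbers with pseudocounts of 0.1 and 1, without the filter, with a filter on the mean (2 CPM, 45 members left), median-ratio scaling, no intensity trend, other fold-change thresholds (none or 1) and chromosome medians removed. The replicate block gave 5 lower and 12 higher, with or without the chromosome medians removed, and, without a fold-change threshold, 6 and 16. Without that threshold this was 22 of 47 members, against 3385 of all 13991 tested genes in either direction. With each library left out, the number called lower ranged from 0 to 3 and the number called higher from 0 to 2. Over all 13991 tested genes these numbers ranged from 33 to 240 and from 11 to 172. The lowest values, for the members and for all genes, came without WT replicate 1. There limma's adjusted p was 0.0623 for Itga2b, 0.069 for Cdh22 and 0.124 for Itgb3, each with its direction kept. Itgb3 was also lost without WT replicate 3 and without Scl-/- replicates 1 and 2 (limma's adjusted p = 0.0552, 0.0505 and 0.0848). Without WT replicate 2, Cdh11 and Pcdh7 were called higher (limma's adjusted p = 0.0451 and 0.0165). With the block and one pair left out, chosen after seeing the data, 4 to 6 members were lower and 11 to 17 higher, and 4 of the 5 lower and 9 of the 12 higher members stayed called in all 3 such fits. Of all 13991 tested genes, 606 to 1009 were lower and 474 to 1053 higher in these fits. The γ-protocadherin entry changed sign, to log2 fold changes of -0.0030 with median-ratio scaling, -0.009 without WT replicate 3, -0.10 without Scl-/- replicate 1 (against up to 0.082 without Scl-/- replicate 2) and -0.10 with the block and without replicate 1. The cause of these changes was not tested. With 3 libraries per group, differences within the spread between differentiations were seen with the pairing only.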
